A study of Mus musculus with 36 samples.

Results

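Expression of 10 genes that restrain the cell cycle or answer to p53 was followed through every library of the series. They are the CDK inhibitors Cdkn1a, Cdkn1b, Cdkn2a, Cdkn2c and Cdkn2d, the transcription factor gene Trp53, its negative regulator Mdm2, and the p53 target genes Ccng1, Gdf15 and Sesn2. Each was chosen by its symbol, and all 10 were found once among the 27562 genes of the FPKM table. The libraries were made from alveolar macrophages (AΦ) and monocytes of the lung, sorted from chimeras, with 3 libraries in each of 12 groups and 36 libraries in all. By the study's methods the populations of one exposure and time point came from the same 3 mice, so libraries of different populations are not all from separate animals. The labels do not state that a replicate number marks a mouse, and the libraries were fitted as independent. FPKM are fragments counted per kilobase of transcript and relative to the size of the library. A level is thus already scaled for gene length and for depth, and the read numbers of single libraries are not known. The summed FPKM of a library still ranged from 1.84e+06 to 3.34e+06, so the libraries are not on a common sum.

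Every mouse was a male C57BL/6J recipient (CD45.2) with the lungs shielded during lethal irradiation, which then received busulfan and marrow of B6.SJL-Ptprca Pepcb/BoyJ donors (CD45.1). Controls breathed filtered air (FA) and the others concentrated ambient PM2.5, for 4 or 32 weeks. Tissue-resident AΦ (TR-AΦ) carried CD45.2 and were sorted at 4-weeks and 32-weeks, and marrow-derived AΦ (BM-AΦ) carried CD45.1 and were sorted at 32-weeks. Monocytes were CD45.2 at 4-weeks, and at 32-weeks the labels number them 1 and 2, here taken for CD45.1 and CD45.2 respectively, following the numbering of the AΦ, so the origin of the 32-weeks monocytes rests on that reading. Mice of 32-weeks had 28 more weeks of exposure and of age than those of 4-weeks, and time, age and the handling of each time point cannot be told apart. CD45.2 monocytes are cells that irradiated hosts still had, and not the monocytes of an untreated mouse.

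Cyclin-dependent kinases drive a cell from rest into DNA synthesis when they are bound by cyclins. The CIP/KIP inhibitors, of which Cdkn1a encodes p21 and Cdkn1b encodes p27, bind whole cyclin-kinase complexes. The INK4 inhibitors bind the kinases Cdk4 and Cdk6 alone, and Cdkn2a encodes p16Ink4a together with p19Arf, a protein from another reading frame that restrains Mdm2. The protein of Mdm2 marks p53 for destruction and is itself a p53 target, which closes a feedback loop. Alveolar macrophages can renew themselves in the lung, whereas monocytes are short-lived cells delivered by the blood, and p21 and p27 are also high in resting and differentiated blood cells.

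The sorted populations held the markers of their labels. The summed FPKM of 12 AΦ markers lay between 6729 and 14191 in the 18 AΦ libraries and between 263 and 1604 in the 18 monocyte libraries. The 1604 FPKM came from PM2.5 replicate 1 of the CD45.2 monocytes at 32-weeks, and every other monocyte library had at most 893 FPKM. The summed FPKM of 11 monocyte markers lay between 153 and 635 in AΦ and between 1392 and 4975 in monocytes. Neutrophil markers, 8 genes, summed to 410 FPKM in FA replicate 2 and 1158 FPKM in PM2.5 replicate 2 of the 4-weeks monocytes, against at most 123 FPKM in every other monocyte library, although the sort excluded Ly6G+ cells. In some groups replicate 2 also held the highest of the 3 values for most members. In TR-AΦ of PM2.5 exposed mice at 4-weeks it did so for 9 of the 10 genes, and in the other groups of 4-weeks for 4 to 6. At 32-weeks it did so for 7 or 8 genes in each FA group and for 3 in each PM2.5 group. The share over all genes was not counted.

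Promoters of Cdkn1a, Mdm2, Ccng1, Trp53, Cdkn1b and Sesn2 are shown first, a choice made after the values were seen. The promoters of all 10 members were searched for the p53 half-site, since p53 binds its target genes at pairs of half-sites. RefSeq start sites gave 14 windows for the 10 members in GRCm38.p6, each 300 bases long, from 250 bases before a gene's start to 50 after it. On both strands, 5 of the 14 windows held at least 1 p53 half-site, from Cdkn1a, Mdm2, Ccng1, Trp53 and Cdkn2d. Among all 32851 windows of the annotation 8.36% held one. The motif TGATGNAA, which ATF4 binds, was in none of the 14 windows and in 3.97% of all, and the AP-1 motif TGANTCA was in none of the 14 and in 7.81% of all, with both strands searched. Capitals below mark p53 half-sites, and the Cdkn1b and Sesn2 windows, which have none, are given for comparison.
Cdkn1a, chr17:29090729-29091028, + strand: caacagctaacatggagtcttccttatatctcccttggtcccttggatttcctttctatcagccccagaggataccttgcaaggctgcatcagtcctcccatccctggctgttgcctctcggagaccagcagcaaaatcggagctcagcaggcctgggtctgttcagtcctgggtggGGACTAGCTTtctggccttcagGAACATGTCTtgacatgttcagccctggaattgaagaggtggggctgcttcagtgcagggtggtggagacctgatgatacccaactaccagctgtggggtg
Mdm2, chr10:117710709-117711008, - strand: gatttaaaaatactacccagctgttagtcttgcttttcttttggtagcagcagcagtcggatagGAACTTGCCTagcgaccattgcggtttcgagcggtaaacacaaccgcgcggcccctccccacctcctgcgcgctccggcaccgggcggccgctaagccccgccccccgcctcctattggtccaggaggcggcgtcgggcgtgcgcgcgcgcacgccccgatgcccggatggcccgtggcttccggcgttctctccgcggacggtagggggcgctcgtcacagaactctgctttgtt
Ccng1, chr11:40755237-40755536, - strand: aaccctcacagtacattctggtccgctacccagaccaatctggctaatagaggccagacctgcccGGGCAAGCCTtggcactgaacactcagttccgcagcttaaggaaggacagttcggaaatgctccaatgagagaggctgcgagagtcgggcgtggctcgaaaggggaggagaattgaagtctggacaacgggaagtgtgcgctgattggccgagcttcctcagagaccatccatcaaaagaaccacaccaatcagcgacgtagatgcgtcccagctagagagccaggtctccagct
Trp53, chr11:69580109-69580408, + strand: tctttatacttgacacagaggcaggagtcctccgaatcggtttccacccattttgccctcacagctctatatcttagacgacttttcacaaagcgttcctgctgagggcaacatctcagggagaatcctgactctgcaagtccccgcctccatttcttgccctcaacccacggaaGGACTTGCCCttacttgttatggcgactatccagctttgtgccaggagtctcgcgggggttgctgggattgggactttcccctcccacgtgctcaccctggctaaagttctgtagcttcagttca
Cdkn1b, chr6:134920151-134920450, + strand: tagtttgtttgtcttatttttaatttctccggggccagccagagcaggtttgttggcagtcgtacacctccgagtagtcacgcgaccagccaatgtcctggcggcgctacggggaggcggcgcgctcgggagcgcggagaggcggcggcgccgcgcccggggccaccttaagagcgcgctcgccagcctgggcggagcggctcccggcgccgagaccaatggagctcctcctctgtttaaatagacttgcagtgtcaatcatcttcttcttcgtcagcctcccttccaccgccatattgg
Sesn2, chr4:132510407-132510706, - strand: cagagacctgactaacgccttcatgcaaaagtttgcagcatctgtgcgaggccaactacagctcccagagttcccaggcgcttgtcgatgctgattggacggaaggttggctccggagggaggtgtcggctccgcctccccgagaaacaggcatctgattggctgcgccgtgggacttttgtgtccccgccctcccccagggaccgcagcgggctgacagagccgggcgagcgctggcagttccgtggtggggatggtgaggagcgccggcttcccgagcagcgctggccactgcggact
Cdkn1a had half-sites at bases 178 and 200 of its first window, Mdm2 at base 65, Ccng1 at base 66 and Trp53 at base 176, counted from the 5′ end of each window. The second Cdkn1a window held none, and the windows of Mdm2, Ccng1, Trp53 and Cdkn2d held a single half-site each and no pair. A match to these letters is a description of the window and not a site shown to be bound.

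**Figure D1:**
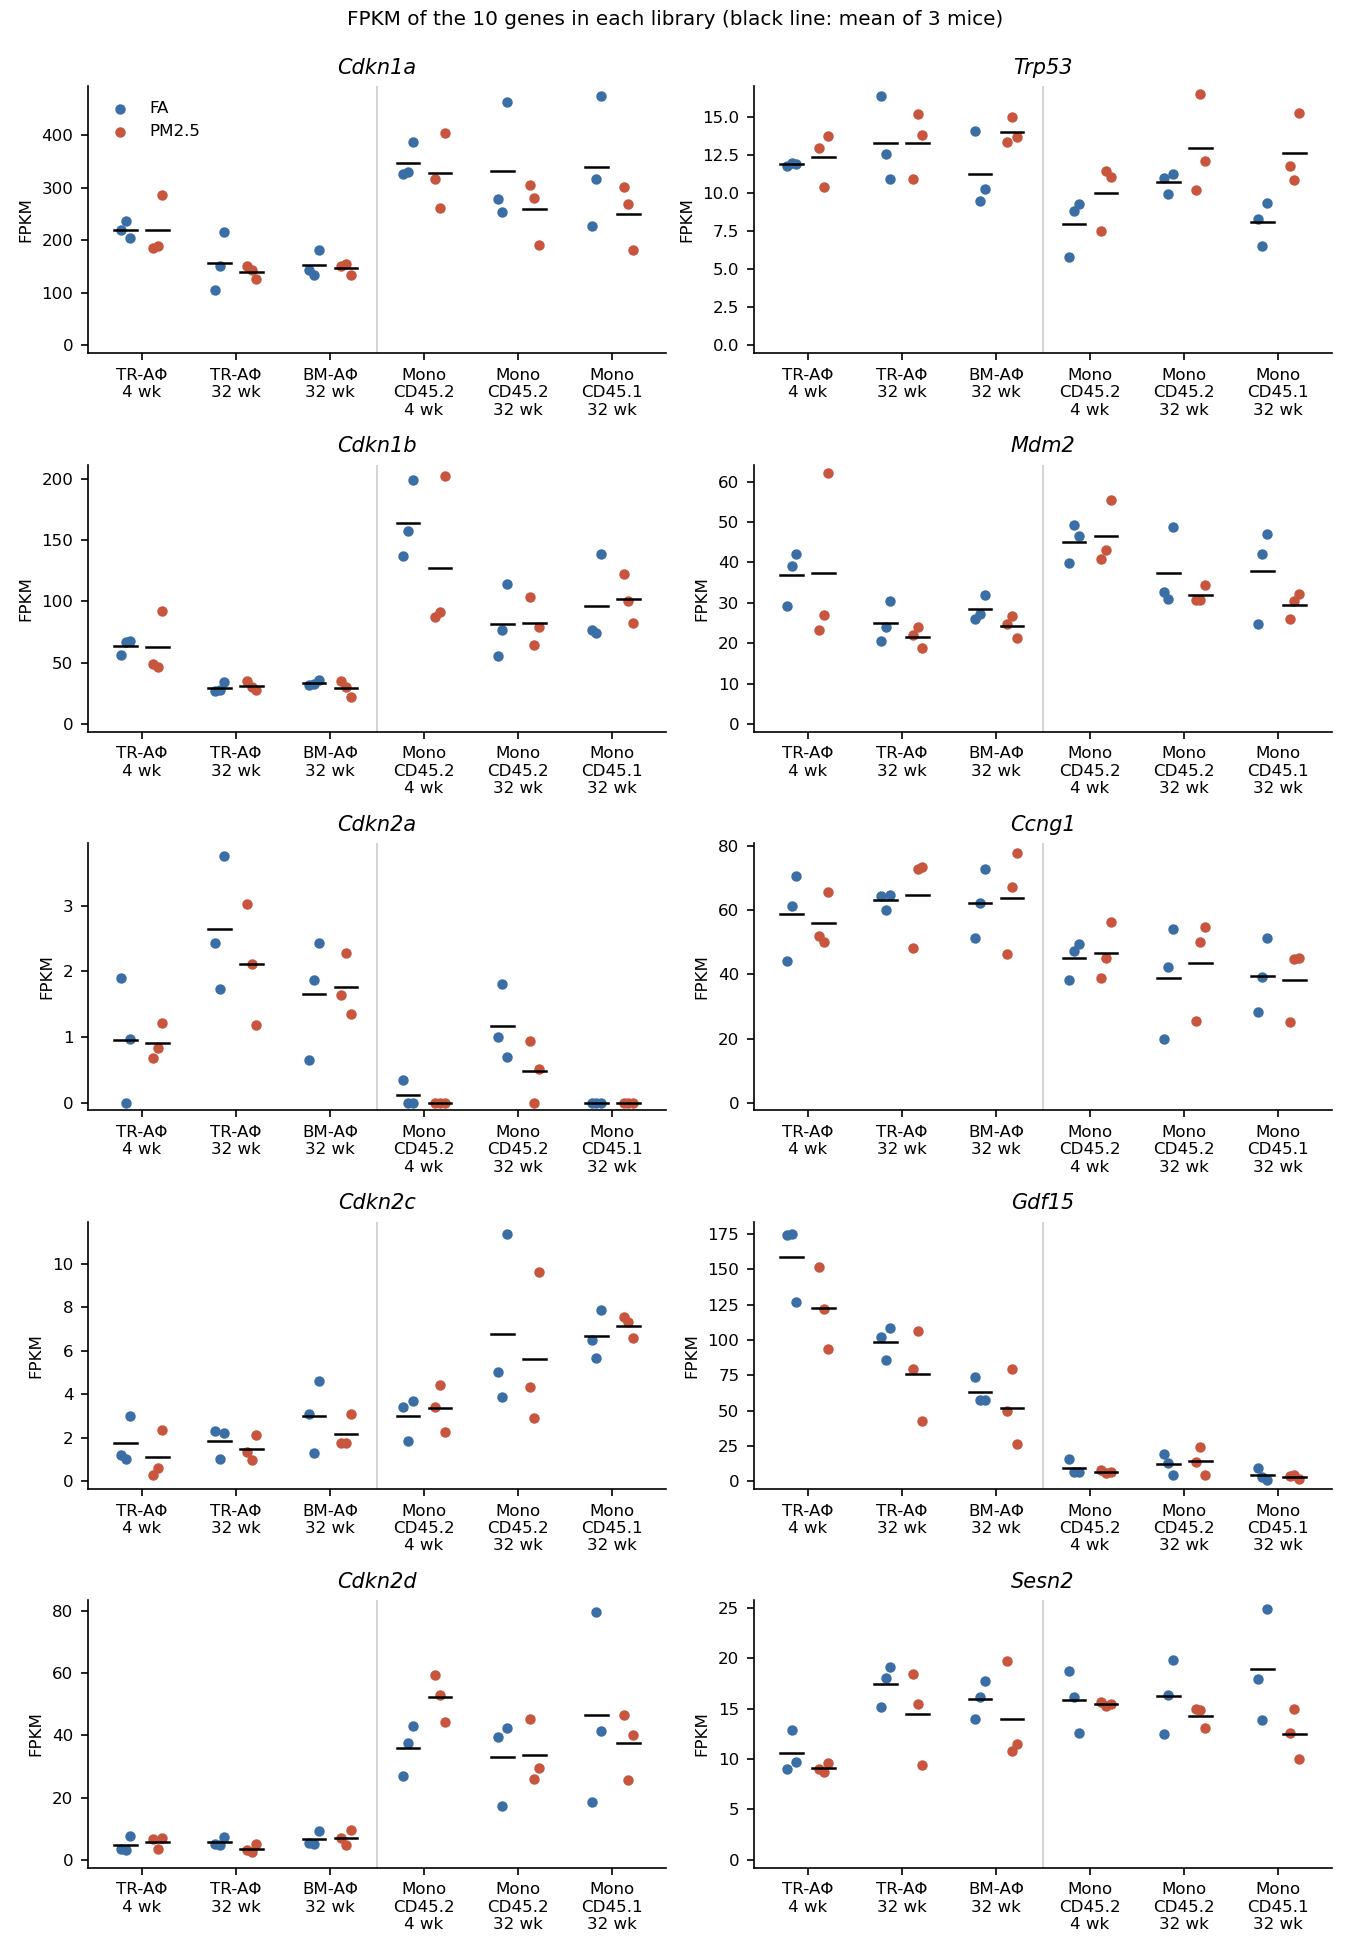
Level in FPKM (vertical axes, linear and starting at 0) of the 10 genes in each of the 36 libraries, with blue points for FA and red points for PM2.5 exposed mice, in 6 populations (horizontal axes), and a black line at the mean of 3 mice. Cdkn2d lies between 2.52 and 9.70 FPKM in the 18 AΦ libraries and between 17.4 and 79.5 FPKM in the 18 monocyte libraries, and Gdf15 shows the opposite order.

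The levels of the members spanned a wide range. By the mean over the 18 AΦ libraries, Cdkn1a had 172.8 FPKM, followed by Gdf15 with 95.2, Ccng1 with 61.4, Cdkn1b with 41.6 and Mdm2 with 28.9 FPKM. Sesn2 had 13.6, Trp53 12.7, Cdkn2d 5.57 and Cdkn2c 1.90 FPKM, and Cdkn2a was listed between 0 and 3.76 FPKM. In the 18 monocyte libraries Cdkn1a was again highest, with a mean of 309 FPKM, and was followed by Cdkn1b with 108.9 FPKM. Cdkn2a was lowest in monocytes and was listed at 0 in 12 of the 18 libraries.

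The main question for these genes was whether they differed between 32-weeks and 4-weeks in TR-AΦ. Cdkn1b and Cdkn1a fell and Sesn2 rose, and these were the 3 members that passed an adjusted p of 0.05 in limma, of 10 tested. Over all 12665 genes tested 5.91% passed, 2.56% higher and 3.35% lower at 32-weeks, so of the 10 members 1 passed among the higher and 2 among the lower. These were 324 higher and 424 lower genes, and the split moved to 68 and 278 with libraries scaled to a common sum of FPKM and to 260 and 578 with upper quartile scaling. Cdkn1b was called under both scalings, and Cdkn1a and Sesn2 kept their directions, with Cdkn1a called under upper quartile scaling and Sesn2 under neither. With all libraries numbered 2 left out, an alternative chosen after seeing the data, 2 members were called, Cdkn1b and Cdkn1a, and Sesn2 had an adjusted p of 0.109 in limma. Without adjustment, 6 of the 10 members had a limma p under 0.05, as did 2822 of all 12665 genes. The median log2 fold change of the 10 members was -0.01, beside 0.03 over all genes. Fold changes are on the scale of log2(FPKM + 1), averaged over FA and PM2.5 exposed mice with 6 libraries at each time point, and they are too small for genes of low level.

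Cdkn1b, on chromosome 6 from 134920400 to 134925513 (ENSMUSG00000003031.14, mm10), showed the clearest change. At 4-weeks TR-AΦ had 56.6, 67.1 and 67.7 FPKM in FA exposed mice and 48.9, 46.6 and 92.2 FPKM under PM2.5. At 32-weeks the values were 27.2, 27.5 and 34.1 FPKM under FA and 35.3, 30.4 and 27.6 FPKM under PM2.5. All 6 libraries of 32-weeks lay under all 6 of 4-weeks. Cdkn1b fell by 1.004 on the log2 scale (SE 0.16, 95% interval -1.32 to -0.69, limma adjusted p 0.00257), and the exact permutation test within exposures gave p 0.005, the smallest its 400 arrangements allow. Within FA the log2 fold change was -1.09 (SE 0.23, limma adjusted p 0.0403), and Cdkn1b was the 1 member called there, where 0.782% of all genes were called. That call was lost in each of the 6 fits that left out 1 library and with a common sum (limma adjusted p 0.109). Within PM2.5 it was -0.92 (SE 0.23, limma adjusted p 0.0681) and no member was called, where 1.05% of all genes were. There 4 members and 1928 of all 12665 genes had an unadjusted limma p under 0.05. With any single library left out, the log2 fold change over both exposures stayed between -1.09 and -0.85 and the adjusted p between 0.00131 and 0.0101 in limma. BM-AΦ at 32-weeks had 32.1, 32.5 and 35.7 FPKM under FA and 34.9, 30.0 and 22.1 FPKM under PM2.5, values that also lay under every 4-weeks TR-AΦ library.

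Cdkn1a, on chromosome 17 from 29090978 to 29100722 (ENSMUSG00000023067.13), fell less. TR-AΦ at 4-weeks had 219, 236 and 204 FPKM under FA and 185, 189.5 and 285 FPKM under PM2.5. At 32-weeks they had 105, 151 and 216 FPKM under FA and 150.1, 143 and 127 FPKM under PM2.5. One library of 32-weeks, FA replicate 2 with 216 FPKM, reached into the range of 4-weeks, and the other 5 lay under it. The log2 fold change was -0.58 (SE 0.16, 95% interval -0.90 to -0.26, limma adjusted p 0.0493, exact permutation p 0.010). This call was lost when any of 10 of the 12 libraries was left out and was kept without FA replicate 2 of 32-weeks (-0.71, limma adjusted p 0.0149) or without PM2.5 replicate 0 of 4-weeks.

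Sesn2, on chromosome 4 from 132492031 to 132510501 (ENSMUSG00000028893.8), encodes a stress protein that restrains mTORC1 and is induced by p53 and by ATF4. It had 9.04, 12.9 and 9.73 FPKM under FA and 9.005, 8.69 and 9.65 FPKM under PM2.5 at 4-weeks. At 32-weeks it had 15.2, 18.1 and 19.2 FPKM under FA and 18.4, 15.5 and 9.40 FPKM under PM2.5. Only PM2.5 replicate 2 of 32-weeks, with 9.40 FPKM, overlapped the 4-weeks range. The log2 fold change was 0.62 (SE 0.17, 95% interval 0.30 to 0.95, limma adjusted p 0.0438, exact permutation p 0.010). Without that library it was 0.75 (limma adjusted p 0.0158), and the call was lost when any of 10 of the 12 libraries was left out.

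Among the INK4 inhibitors no member passed in TR-AΦ. Cdkn2a, on chromosome 4 from 89274470 to 89294653 (ENSMUSG00000044303.6), had 1.89, 0 and 0.97 FPKM under FA and 0.684, 0.830 and 1.21 FPKM under PM2.5 at 4-weeks. At 32-weeks it had 2.42, 1.73 and 3.76 FPKM under FA and 3.03, 2.11 and 1.17 FPKM under PM2.5. The ranges overlapped, and the log2 fold change was 0.83 (SE 0.27, limma adjusted p 0.0884, exact permutation p 0.020). The gene-level FPKM cannot separate the p16Ink4a and p19Arf transcripts. Cdkn2c, the gene of p18Ink4c on chromosome 4 from 109660875 to 109667189, lay between 0.305 and 3.02 FPKM at 4-weeks and between 0.972 and 2.30 FPKM at 32-weeks (log2 fold change 0.21, limma adjusted p 0.712). Cdkn2d, the gene of p19Ink4d on chromosome 9 from 21288462 to 21291209, lay between 3.03 and 7.59 FPKM and between 2.52 and 7.26 FPKM (log2 fold change -0.13, limma adjusted p 0.803).

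Trp53, on chromosome 11 from 69580358 to 69591873 (ENSMUSG00000059552.13), had close values at both time points. TR-AΦ had between 10.4 and 13.8 FPKM at 4-weeks and between 10.9 and 16.4 FPKM at 32-weeks, with a log2 fold change of 0.11 and a 95% interval from -0.12 to 0.35. Mdm2, on chromosome 10 from 117688887 to 117710758 (ENSMUSG00000020184.14), had 29.2, 39.0 and 42.0 FPKM under FA and 23.4, 26.9 and 62.0 FPKM under PM2.5 at 4-weeks. At 32-weeks it had 20.4, 24.02 and 30.5 FPKM under FA and 22.0, 23.9 and 18.8 FPKM under PM2.5. The highest value, 62.0 FPKM, came from PM2.5 replicate 2, the library in which 9 members were highest. The log2 fold change of Mdm2 was -0.59 (SE 0.20, limma adjusted p 0.0958, exact permutation p 0.020), and -0.38 in the leave-one-out fit that moved it most, without PM2.5 replicate 2 of 4-weeks. It passed without PM2.5 replicate 0 of 4-weeks (-0.72, limma adjusted p 0.0376) and with upper quartile scaling (-0.63, limma adjusted p 0.0485).

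The p53 targets Ccng1 and Gdf15 did not pass in TR-AΦ. Ccng1, which encodes the cyclin G1 that recruits a phosphatase to Mdm2, lies on chromosome 11 from 40748551 to 40755311. It had between 44.3 and 70.6 FPKM at 4-weeks and between 48.2 and 73.5 FPKM at 32-weeks (log2 fold change 0.16, 95% interval -0.15 to 0.47). Gdf15, which encodes a secreted stress cytokine of the TGF-beta family, lies on chromosome 8 from 70629392 to 70632456. At 4-weeks it had 174, 175 and 127 FPKM under FA and 152, 122 and 93.8 FPKM under PM2.5. At 32-weeks it had 102, 85.5 and 109 FPKM under FA and 79.4, 106 and 43.0 FPKM under PM2.5. In FA exposed mice the time points did not overlap, and in PM2.5 exposed mice they did. Its log2 fold change over both exposures was -0.71 (SE 0.25, 95% interval -1.20 to -0.21, limma adjusted p 0.117, exact permutation p 0.010), and with the replicate number as a block it passed (limma adjusted p 0.0487).

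**Figure D2:**
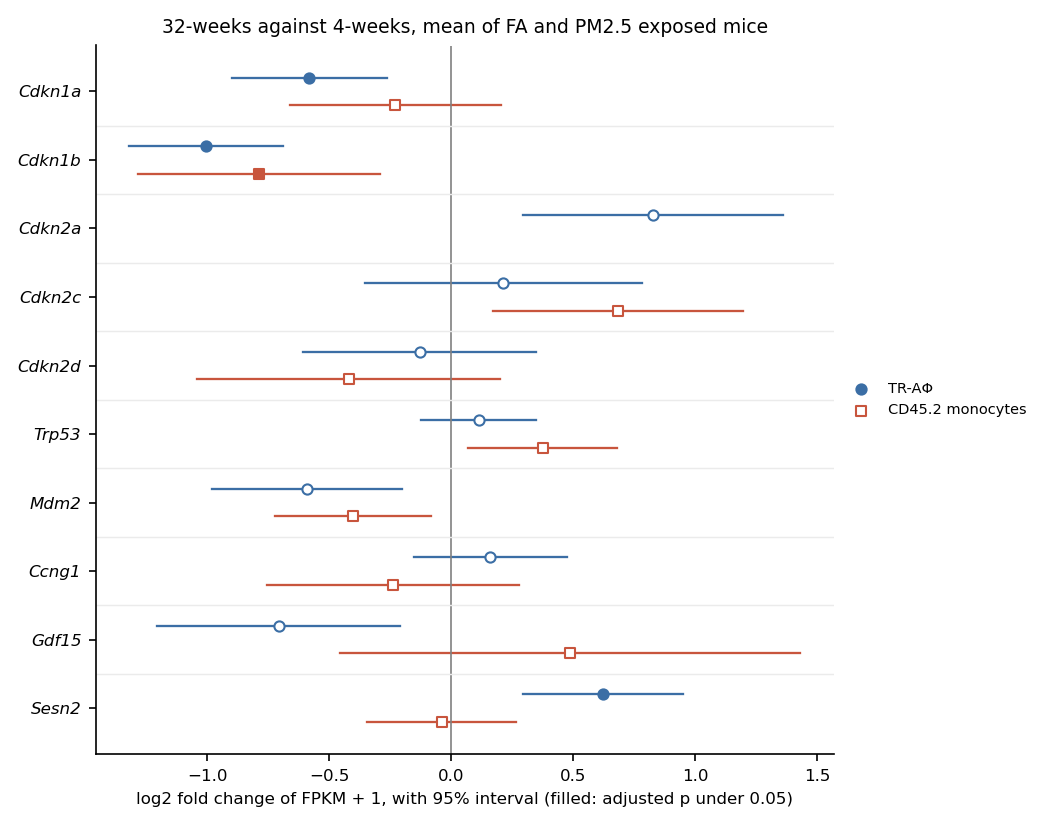
Log2 fold change of FPKM + 1 (horizontal axis) from 4-weeks to 32-weeks of each gene (vertical axis) in TR-AΦ (blue circles) and CD45.2 monocytes (red squares), with 95% intervals, filled where the adjusted p from limma is under 0.05 and with 6 libraries at each time point. Cdkn1b lies at -1.004 in TR-AΦ and at -0.79 in monocytes, and Cdkn2a is drawn for TR-AΦ only, since it did not reach a mean of 1 FPKM in monocytes.

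The same contrast was made in CD45.2 monocytes. Of 9 members tested, Cdkn1b was the 1 that passed, and it fell, while over all 12856 genes 14.9% passed, 7.06% higher and 7.83% lower. The 908 higher and 1006 lower genes became 1111 and 520 with a common sum and 1227 and 792 with upper quartile scaling, with the median of all genes shifted by 0.10 on the log2 scale in each. Cdkn1b kept its direction in both and was called in neither, with limma adjusted p of 0.116 and 0.0524. The median log2 fold change of the 9 members was -0.23, beside -0.05 over all genes. Without adjustment, 4 of the 9 members had a limma p under 0.05, as did 3517 of all 12856 genes. At 4-weeks Cdkn1b had 137, 157 and 199 FPKM under FA and 87.4, 91.5 and 202 FPKM under PM2.5, and at 32-weeks it had 55.1, 76.3 and 114 FPKM under FA and 103, 64.3 and 78.9 FPKM under PM2.5. The ranges overlapped, and the log2 fold change was -0.79 (SE 0.25, limma adjusted p 0.0499, exact permutation p 0.020). The 2 highest values, 199 and 202 FPKM, came from the 4-weeks libraries with 410 and 1158 FPKM of neutrophil markers. With all libraries numbered 2 left out the log2 fold change was -0.65 (limma adjusted p 0.0677), and the part of neutrophils in the result was not tested. The call was also lost when any of 8 of the 12 libraries was left out. Within FA no member passed of the 9, where 7.21% of all genes did. There 2 members and 2677 of all 12856 genes had an unadjusted limma p under 0.05. Within PM2.5 none passed, where 2.42% of all genes did, and 1 member and 2072 of all genes had such a p.

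The other members in CD45.2 monocytes gave no call. Cdkn1a had between 262 and 403 FPKM at 4-weeks and between 191 and 463 FPKM at 32-weeks (log2 fold change -0.23, 95% interval -0.66 to 0.20). Cdkn2c had 3.41, 1.87 and 3.71 FPKM under FA and 3.43, 4.45 and 2.28 FPKM under PM2.5 at 4-weeks, and 5.03, 3.90 and 11.4 FPKM under FA and 4.33, 2.93 and 9.62 FPKM under PM2.5 at 32-weeks. Its log2 fold change was 0.68 (SE 0.26, limma adjusted p 0.0990), and replicate 2 of each exposure held the 2 highest values. Trp53 had a log2 fold change of 0.37 (limma adjusted p 0.130). Mdm2 had one of -0.40 (limma adjusted p 0.123), which passed with the replicate number as a block (limma adjusted p 0.030). Sesn2, which rose in TR-AΦ, had between 12.6 and 18.7 FPKM at 4-weeks and between 12.5 and 19.9 FPKM at 32-weeks, a log2 fold change of -0.04 with a 95% interval from -0.34 to 0.27.

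Cdkn2a was below the mean of 1 FPKM in monocytes and was not tested there. In CD45.2 monocytes it was listed at 0.347, 0 and 0 FPKM under FA and at 0 in all 3 PM2.5 exposed mice at 4-weeks. At 32-weeks it was listed at 1.001, 1.7998 and 0.7001 FPKM under FA and at 0.945, 0 and 0.513 FPKM under PM2.5. In CD45.1 monocytes of 32-weeks it was listed at 0 in all 6 libraries. It was thus above 0 in 1 of 6, 5 of 6 and 0 of 6 libraries of these populations. Such low values rest on an unknown number of reads, and a listed 0 can be a failed estimate.

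Whether the 32-weeks against 4-weeks changes differed between the cell types was tested as an interaction over 13307 genes. No member of the 9 tested passed in limma, where 7.88% of all genes did. An unadjusted limma p under 0.05 was found for 2 members and for 2702 of all genes. For Sesn2 the log2 fold change in TR-AΦ was higher than that in monocytes by 0.66 (SE 0.23, limma adjusted p 0.0779), and for Gdf15 the difference was -1.19 (SE 0.56, limma adjusted p 0.229). For Cdkn1b the difference was -0.22 (SE 0.30). With the replicate number within exposure and time as a block, an alternative chosen after seeing the data, Sesn2 and Gdf15 passed with limma adjusted p of 0.0214 and 0.0421. Whether exposure changed the time contrast was tested as well. No member passed in TR-AΦ, where 0.0079% of all genes did, nor in monocytes, where 0.00778% did. No member had an unadjusted limma p under 0.05 in either, where 380 and 483 of all genes had one.

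The other genes of these pathways were read from lists named by function. In TR-AΦ, where 2.56% of all genes rose and 3.35% fell, 21 further p53 targets of arrest and repair were tested and 1 rose and 1 fell, with a median log2 fold change of -0.07. Phlda3, which restrains Akt, rose from 14.1 ± 5.93 to 29.8 ± 5.79 FPKM (SD, n = 6; log2 fold change 1.102, limma adjusted p 0.0260). Ccng2, the gene of the cyclin G2 relative of Ccng1, fell from 28.1 ± 7.11 to 9.53 ± 2.53 FPKM (SD, n = 6; log2 fold change -1.46, limma adjusted p 3.32e-04). Of 8 apoptotic p53 targets 1 rose, Ei24, and 1 fell, Pmaip1, the gene of the BH3-only protein Noxa, from 27.8 ± 12.6 to 11.1 ± 3.56 FPKM (SD, n = 6). Of 12 genes that regulate p53 1 fell, the deacetylase gene Sirt1. None of 9 cyclins and CDKs, of 4 other CDK inhibitors and pocket proteins, of 6 genes that control Cdkn1b, or of 10 proliferation genes passed in TR-AΦ, and the median log2 fold change of the proliferation genes was 0.41.

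Some stress and immediate early genes also fell in TR-AΦ. Of 10 tested genes of the integrated stress response none rose and 4 fell, Ppp1r15a, Slc7a11, Nupr1 and Atf4, and of 10 immediate early genes none rose and 4 fell, Egr1, Ier2, Zfp36 and Junb. Egr1 fell from 815 ± 128 to 133 ± 69.8 FPKM (SD, n = 6; log2 fold change -2.76, limma adjusted p 2.82e-04). Ppp1r15a, which encodes a phosphatase subunit that ends the stress response, fell from 74.5 ± 18.6 to 16.8 ± 4.21 FPKM (SD, n = 6). The summed FPKM of the 10 immediate early genes lay between 4147 and 5778 in TR-AΦ at 4-weeks and between 2291 and 4623 at 32-weeks. These ranges overlapped. The summed FPKM of the 13 integrated stress response genes also overlapped, with 1227 to 2250 at 4-weeks and 1205 to 2808 at 32-weeks. Its median was higher at 32-weeks, 2254 against 1686. In FA exposed mice this sum lay between 1650 and 1761 at 4-weeks and between 2115 and 2808 at 32-weeks, and under PM2.5 the ranges overlapped. The part of these genes in the values of Cdkn1a and Cdkn1b was not tested. The summed FPKM of 11 monocyte markers lay between 252 and 635 at 4-weeks and between 153 and 421 at 32-weeks in the same libraries. Of 10 tested, 1 fell, Cx3cr1. Nr4a1 is in this list and in that of the immediate early genes, and it had 177 ± 86.5 FPKM at 32-weeks (SD, n = 6). The sum thus does not hold cell type markers alone. In bulk libraries fewer cells of a type and less RNA per cell cannot be told apart.

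The same lists were read in CD45.2 monocytes, where 14.9% of all genes passed, beside 5.91% in TR-AΦ. Of 22 further p53 targets of arrest and repair 2 rose and 5 fell. Gadd45a, which binds PCNA and CDK1 complexes, fell from 121 ± 17.4 to 29.98 ± 7.11 FPKM (SD, n = 6; log2 fold change -2.00, limma adjusted p 5.59e-05), and Plk2 fell from 53.9 ± 18.04 to 17.0 ± 5.49 FPKM (SD, n = 6). Ephx1, the gene of an epoxide hydrolase, rose from 2.64 ± 2.504 to 27.2 ± 16.1 FPKM (SD, n = 6; log2 fold change 3.03, limma adjusted p 0.00144). Of 7 apoptotic p53 targets 1 rose and 3 fell, and of 12 p53 regulators none rose and 3 fell, among them Kat5 (log2 fold change -0.61). Of 8 genes of the integrated stress response 4 fell, among them Nupr1 (log2 fold change -1.99) and Ppp1r15a (-1.54), and of 10 immediate early genes 3 fell, among them Nr4a1 (-1.27) and Ier2 (-0.95). Of 7 cyclins and CDKs 2 rose and 1 fell, and the partner of the INK4 inhibitors Cdk6 rose from 7.72 ± 0.457 to 13.6 ± 4.19 FPKM (SD, n = 6). Of 7 proliferation genes 1 fell, the replication clamp gene Pcna, from 71.4 ± 5.87 to 45.11 ± 5.92 FPKM (SD, n = 6). Cell type markers of these libraries also differed. Of 11 monocyte markers 5 fell, and their summed FPKM was between 3749 and 4975 at 4-weeks and between 1392 and 3702 at 32-weeks. Nr4a1 is in this list and in that of the immediate early genes. It fell from 1876 ± 340 to 783 ± 171 FPKM (SD, n = 6), so the sum does not hold cell type markers alone. Of 9 AΦ markers 4 rose and 3 fell. The part of these differences in the members' values was not tested.

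**Figure D3:**
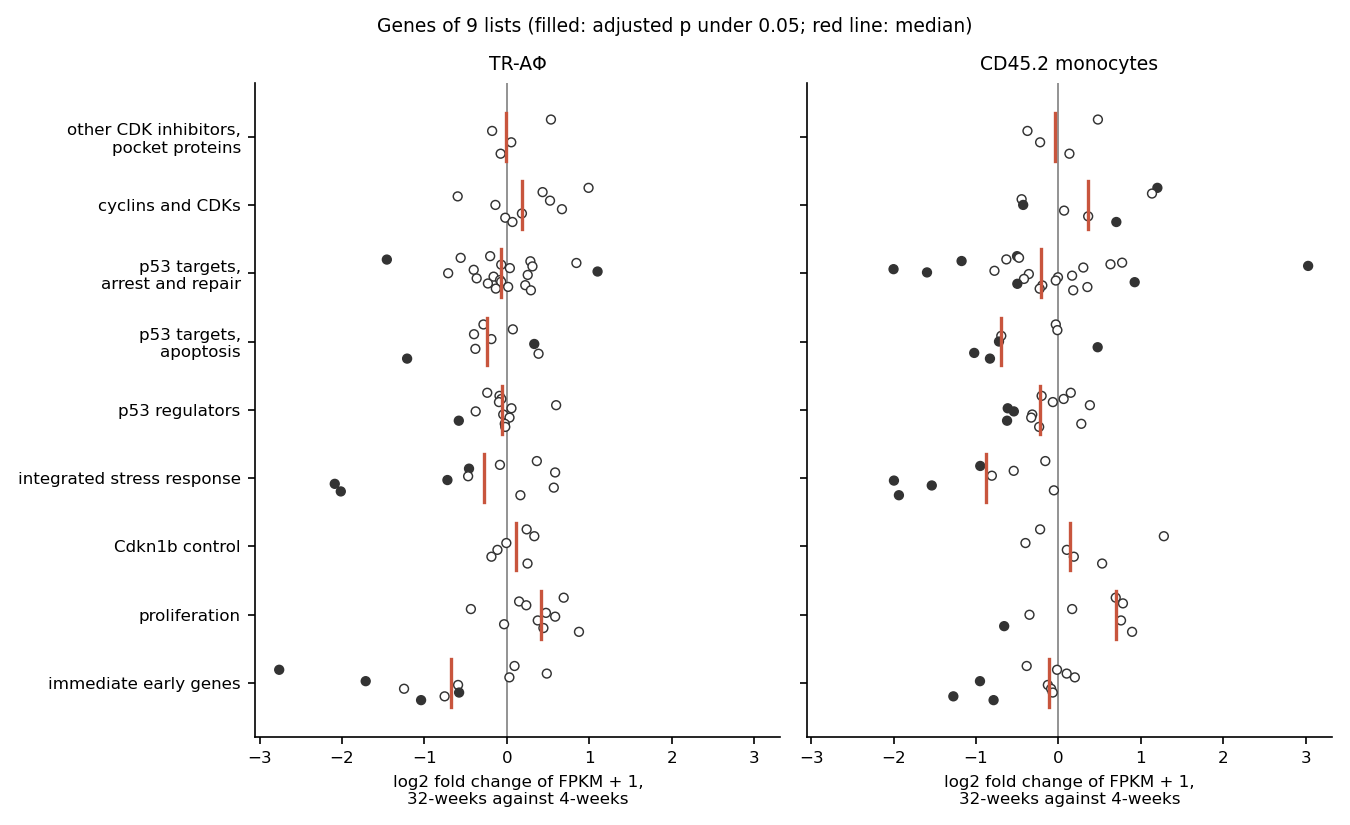
Log2 fold change of FPKM + 1 from 4-weeks to 32-weeks (horizontal axes) of each tested gene of 9 lists (vertical axis) in TR-AΦ and in CD45.2 monocytes, filled where the adjusted p from limma is under 0.05, with a red line at the median of the list. The integrated stress response and immediate early genes hold 4 and 4 calls in TR-AΦ, all lower at 32-weeks.

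AΦ and monocytes were then compared within each time point and origin. Gdf15 was higher and Cdkn1a, Cdkn1b, Cdkn2c and Cdkn2d were lower in AΦ in each of the 3 comparisons. Of 9 members tested, 7 passed at 4-weeks, 2 higher and 5 lower in TR-AΦ, where 48.2% of all 13307 genes passed (22.6% higher, 25.5% lower). At 32-weeks 7 passed between TR-AΦ and CD45.2 monocytes, 2 higher and 5 lower, where 47.3% of all genes passed (23.6% higher, 23.7% lower). Between BM-AΦ and CD45.1 monocytes 6 passed, 2 higher and 4 lower, where 50.9% of all genes passed (27.1% higher, 23.8% lower). Since about as many of all genes differ between these cell types as do not, a call by itself says little about a member, and the size of the differences is given instead. With libraries scaled to a common sum the median of all genes rose by 0.23, 0.14 and 0.33 on the log2 scale in the 3 comparisons, and 4247, 3811 and 5480 genes were higher against 2127, 2394 and 1865 lower. Mdm2 and Ccng1 at 4-weeks and Mdm2 between the CD45.1 populations passed with the replicate number within exposure and time as a block, with limma adjusted p of 0.0142, 0.0411 and 0.0307. Every member called kept its direction with a common sum, and the calls of Cdkn1a, Cdkn2c and Sesn2 at 4-weeks and of Mdm2 at 32-weeks were lost. Cdkn1a at 4-weeks had a log2 fold change of -0.22 with quantile normalization, and the call was lost there as well.

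Cdkn2d and Gdf15 were farthest apart. The 18 AΦ libraries had between 2.52 and 9.70 FPKM of Cdkn2d (median 5.17) and the 18 monocyte libraries between 17.4 and 79.5 FPKM (median 40.7), with no overlap. The log2 fold changes of Cdkn2d in AΦ against monocytes were -2.88 (SE 0.29) at 4-weeks, -2.59 (SE 0.29) between the CD45.2 populations of 32-weeks and -2.36 (SE 0.29) between the CD45.1 populations. Gdf15 had between 26.4 and 174.9 FPKM in AΦ (median 89.7) and between 0.522 and 24.1 FPKM in monocytes (median 6.39), again with no overlap. Its log2 fold changes were 4.01, 2.82 and 3.79 in the same order, each with an SE of 0.40 and limma adjusted p of 2.46e-09, 1.26e-06 and 8.09e-09.

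The CIP/KIP genes differed less. Cdkn1b had log2 fold changes of -1.15, -1.37 and -1.61 in AΦ against monocytes (SE 0.22 each), and Cdkn1a ones of -0.62, -0.97 and -0.92 (SE 0.19 each). Cdkn2c, the weakly listed INK4 gene, had log2 fold changes of -0.87, -1.34 and -1.20 (SE 0.28 each). Among the p53 genes, Trp53 passed at 4-weeks (0.42, limma adjusted p 0.0130) and Ccng1 in both comparisons of 32-weeks (0.71 and 0.70, limma adjusted p 0.0103 and 0.0104). Mdm2 was lower in TR-AΦ than in CD45.2 monocytes at 32-weeks (-0.55, limma adjusted p 0.0147). Sesn2 was lower in TR-AΦ at 4-weeks (-0.62, limma adjusted p 0.00227) and had log2 fold changes of 0.04 and -0.04 in the comparisons of 32-weeks. The kinases and cyclins that these inhibitors bind also differed between TR-AΦ and CD45.2 monocytes at 32-weeks. Of 9 tested, 5 were higher in TR-AΦ and 2 lower. Among the higher, Ccnd2 had 122 ± 29.7 against 13.4 ± 6.64 FPKM and Cdk6 35.0 ± 7.02 against 13.6 ± 4.19 FPKM. The lower were Ccnd1 at 0.885 ± 0.466 against 12.1 ± 5.70 FPKM and Ccnd3 at 32.6 ± 6.75 against 83.3 ± 11.5 FPKM (SD, n = 6 each).

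**Figure D4:**
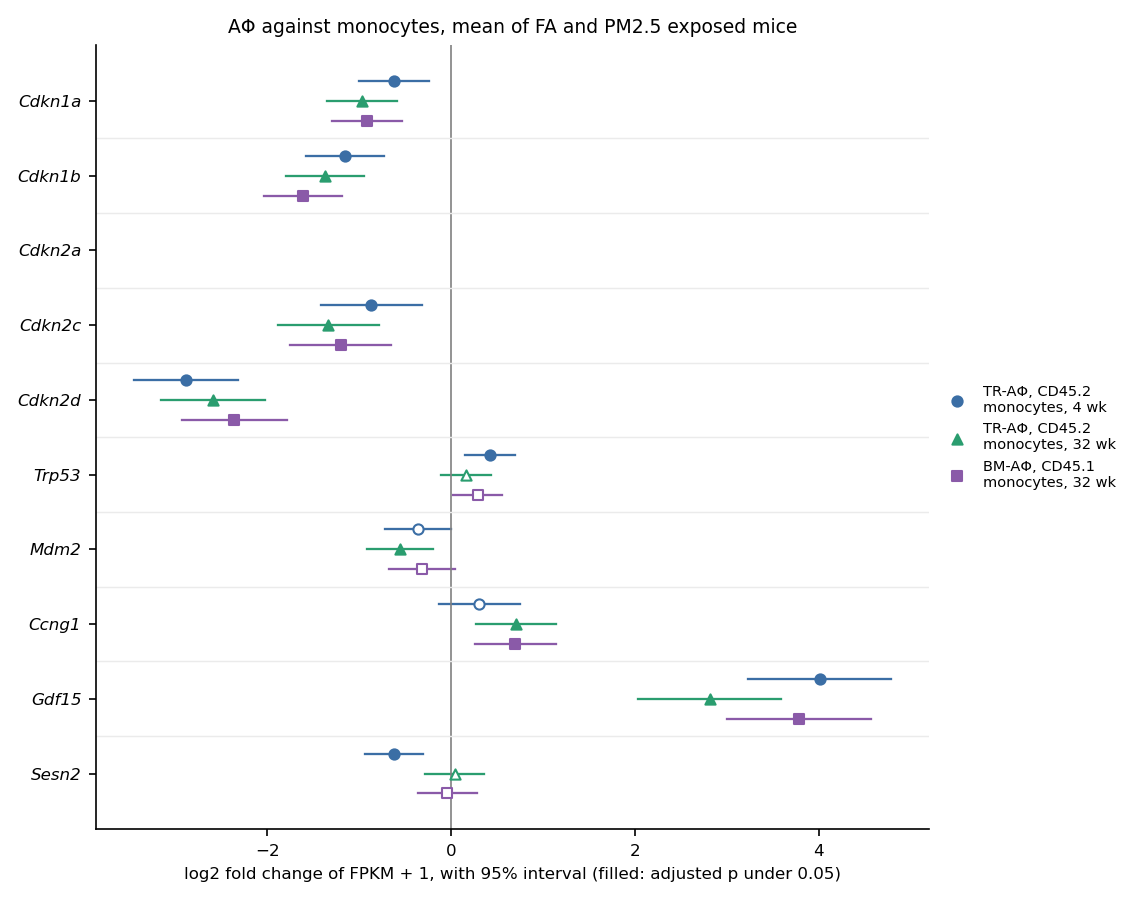
Log2 fold change of FPKM + 1 (horizontal axis) of each gene (vertical axis) in AΦ against monocytes at 4-weeks (blue circles), between the CD45.2 populations of 32-weeks (green triangles) and between the CD45.1 populations (purple squares), with 95% intervals and filled where the adjusted p from limma is under 0.05. Cdkn2d lies between -2.88 and -2.36 and Gdf15 between 2.82 and 4.01, and Cdkn2a was not tested and has no symbol.

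The order of the 6 populations by mean level put neighbours together whose libraries overlapped, with few breaks. For Cdkn1a and Cdkn1b the 3 monocyte populations came first, then TR-AΦ of 4-weeks, then both AΦ populations of 32-weeks, and only TR-AΦ of 4-weeks and BM-AΦ of 32-weeks did not overlap as neighbours. For Cdkn2d the break lay between the monocyte and the AΦ populations, and for Gdf15 between BM-AΦ of 32-weeks, with a mean of 57.4 FPKM, and CD45.2 monocytes of 32-weeks, with 13.1 FPKM. For the other 6 members every pair of neighbours overlapped.

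Origin was compared at 32-weeks, between populations that the study sorted from the same mice of each exposure. The fits below did not pair them. Between BM-AΦ and TR-AΦ no member passed in limma, where 0.316% of all genes did. An unadjusted limma p under 0.05 was found for 1 member, Gdf15, and for 944 of all 12665 genes. BM-AΦ had 73.9, 57.3 and 57.8 FPKM of Gdf15 in FA and 49.5, 79.3 and 26.4 FPKM under PM2.5, with a log2 fold change against TR-AΦ of -0.62 (SE 0.25, limma adjusted p 0.561). Gdf15 was lower in BM-AΦ in 6 of 6 pairs of same-numbered libraries, and Cdkn2c, Cdkn2d and Mdm2 were higher in 6 of 6. The labels do not tie these numbers to mice. The share of all genes with 6 of 6 pairs in the same direction was not counted. No member passed with the replicate number as a block or with the number within exposure as a block, where Gdf15 had limma adjusted p of 0.291 and 0.0723 and Cdkn2d 0.0769 and 0.0864. The Cdkn1b difference between these AΦ was 0.03 (SE 0.16) and that of Cdkn1a 0.04 (SE 0.16). Between CD45.1 and CD45.2 monocytes no member passed, where 0.669% of all genes did. Of all 12856 genes 1233 had an unadjusted limma p under 0.05. Gdf15, the 1 member with an unadjusted p under 0.05, had 9.41, 2.66 and 0.522 FPKM under FA and 3.66, 4.31 and 1.87 FPKM under PM2.5 in CD45.1 monocytes, and 19.4, 12.6 and 4.55 FPKM and 13.9, 24.1 and 4.30 FPKM in CD45.2 monocytes (log2 fold change -1.59, SE 0.48, limma adjusted p 0.200). It was lower in CD45.1 monocytes in 6 of 6 same-numbered pairs, again without a count over all genes. Its highest monocyte value, 24.1 FPKM, came from PM2.5 replicate 1 of the CD45.2 monocytes. That library held 1604 FPKM of AΦ markers, against at most 893 FPKM in every other monocyte library. The part of AΦ in this value was not tested. Gdf15 passed with the replicate number as a block (limma adjusted p 0.0425) and not with the number within exposure as a block (limma adjusted p 0.0540).

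PM2.5 and FA exposed mice were compared in each of the 6 populations, which is the exposure the study was built on. No member passed in limma in any of the 6, and no log2 fold change was past 1 in size. Over all genes 0.0079% passed in TR-AΦ at 4-weeks, 0% at 32-weeks and 0.0158% in BM-AΦ, and 0.00778% in CD45.2 monocytes at 4-weeks, 0% in CD45.1 and 0% in CD45.2 monocytes at 32-weeks. In the populations with 0 genes called, limma gave an unadjusted p under 0.05 for 396, 609 and 547 genes. With 3 mice against 3 the smallest exact permutation p is 0.1, which any gene with groups that do not overlap has. The share of all genes with such groups was not counted, so the count below is a description. Of the 57 member comparisons tested, 2 had groups that did not overlap, Cdkn2d in CD45.2 monocytes at 4-weeks and Trp53 in CD45.1 monocytes at 32-weeks, each higher in PM2.5 exposed mice. Trp53 had 8.30, 6.56 and 9.37 FPKM under FA and 11.8, 10.9 and 15.3 FPKM under PM2.5 there (log2 fold change 0.59, SE 0.22, limma adjusted p 0.946). Sesn2 was the other member with an unadjusted p under 0.05, also in CD45.1 monocytes (log2 fold change -0.54, SE 0.22, limma adjusted p 0.946). The 95% intervals reached from -1.70 to 1.46, so these comparisons do not show that the members had the same level under both exposures.

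**Figure D5:**
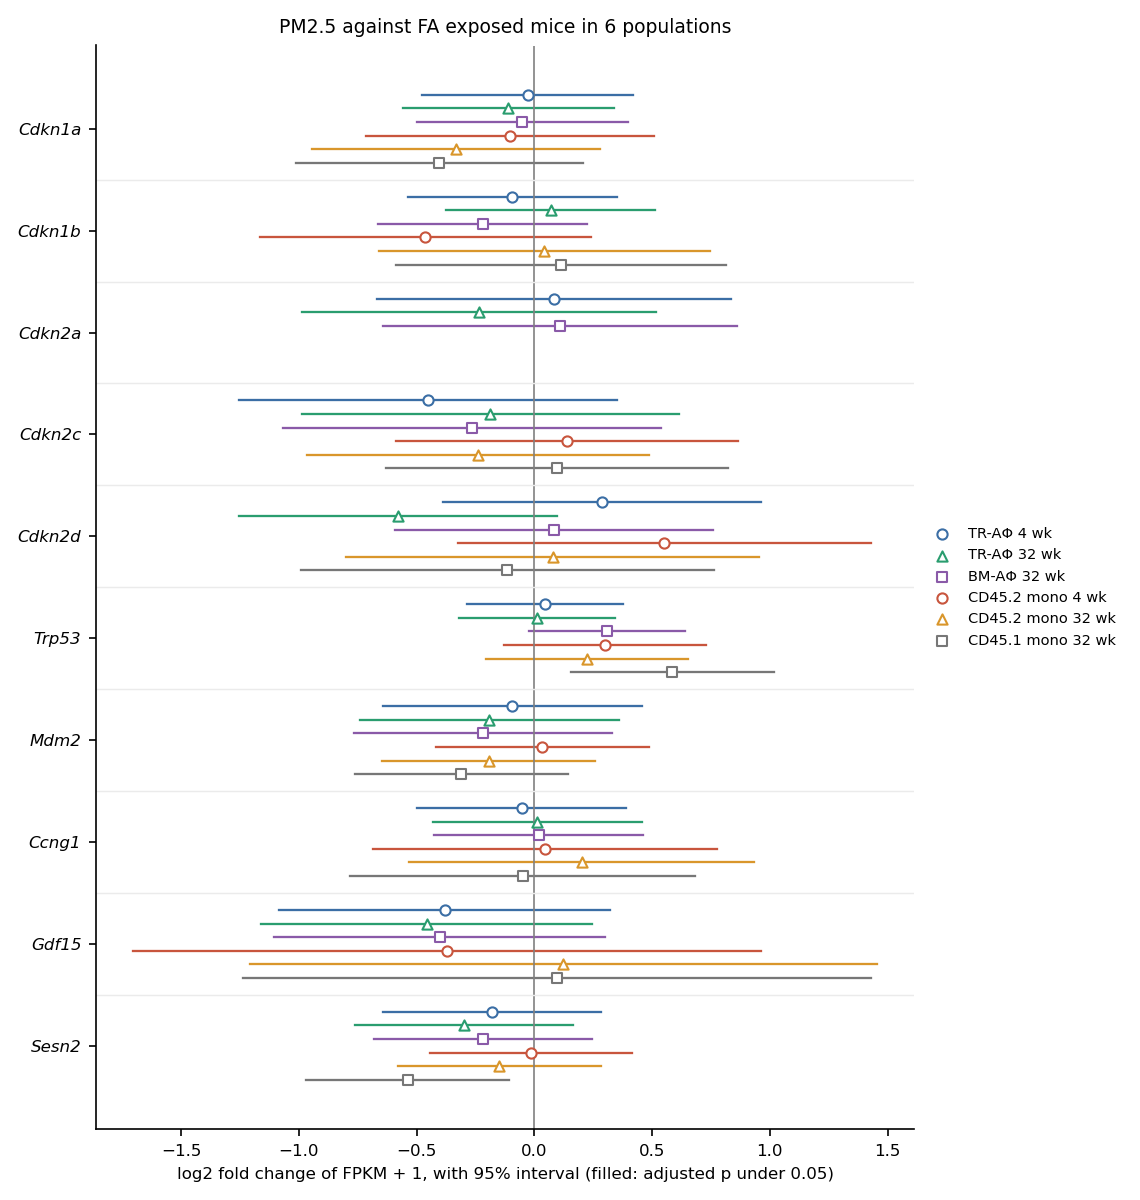
Log2 fold change of FPKM + 1 (horizontal axis) of each gene (vertical axis) in PM2.5 against FA exposed mice in 6 populations with 3 mice per exposure, with 95% intervals. No symbol is filled, since no adjusted p from limma was under 0.05, and Trp53 in CD45.1 monocytes lies at 0.59.

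Among themselves some pairs of members varied together within a cell type, and not all of these did so in both. Over the 18 AΦ libraries Cdkn1a and Cdkn1b had a Pearson r of 0.87 (Spearman rho 0.82), Cdkn1b and Mdm2 one of 0.85 (rho 0.74) and Cdkn1a and Mdm2 one of 0.85 (rho 0.80). Over the 18 monocyte libraries the same pairs had r of 0.63, 0.62 and 0.68. Mdm2 and Ccng1 had an r of 0.61 in monocytes and 0.09 in AΦ. Cdkn2c and Cdkn2d had one of 0.63 in AΦ and -0.01 in monocytes. The lowest r was that of Cdkn2c with Gdf15, -0.52 in AΦ and -0.52 in monocytes. The median over all pairs was -0.04 in AΦ and -0.02 in monocytes. Over all 36 libraries, the genes most like Cdkn1a by Pearson r of log2(FPKM + 1) among 13306 others were Fosl2 (0.96) and Pde4b (0.95), and those most like Cdkn1b were Nod2 (0.96) and Pim1 (0.95). These are descriptions over libraries that share groups, time points and sorting, without a test.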

How the data were processed

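RNA was isolated from sorted AΦ and monocytes with the RNeasy Micro kit, and 36 stranded libraries were sequenced, from 3 mice of each exposure and time point. The authors trimmed the reads with TrimGalore, aligned them with STAR to mm10 with GENCODE annotation and computed FPKM with Cufflinks, and these deposited FPKM were analysed as they stand. Raw counts were not used here and the paper gives a nominal depth only. The depth of each library and the precision of single values are thus unknown.

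From the FPKM, log2(FPKM + 1) was fitted in limma 3.58.1 (R 4.3.3) with 1 mean per group and a variance trend, separately for the 18 AΦ libraries, the 18 monocyte libraries and all 36, and genes whose mean in the model reached 1 FPKM were tested. Benjamini-Hochberg adjustment ran over all genes of a model. Exact two-sided permutation tests exchanged libraries within exposures. Intervals are 95%. The script was tested on simulated data. The p-values cover the spread between libraries, which were fitted as independent although populations of one exposure and time point came from the same mice.

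The members and lists were chosen with earlier results of these data known. Named were all members and, from each list, up to 2 genes per direction whose groups did not overlap, ranked by size of change among those called. Further genes behind counts of 5 or fewer were named after their values were seen, as was the choice of promoters. The p53 half-site was searched under its usual consensus in RefSeq promoters of GRCm38.p6. The labels do not tie replicate numbers to mice, and the fits were unpaired as planned. Alternatives were a pseudocount of 0.1, no filter, 3 scalings, the compared groups alone, a replicate block (over all groups and, added later, within exposure and time) and leaving out libraries.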

Additional observations from a re-analysis of the deposited data

How the results depend on the processing

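The depth of single libraries was unknown and each group held 3 libraries, which limits calls near the threshold. Of the members called in TR-AΦ over time, Cdkn1b kept its call and direction over both exposures in every fit run. The count of 3 called members became 1 without the filter on low values, with quantile normalization, with a common sum and with the compared groups only, and ranged from 1 to 3 when single libraries were left out. Within FA the count of 1 became 0 without the filter, with a common sum and with the compared groups only, and was 0 to 0 over single libraries left out. Within PM2.5 the count of 0 became 1 with quantile normalization and upper quartile scaling, and 0 to 1 over single libraries, with 1 without PM2.5 replicate 0 of 4-weeks. In monocytes the count of 1 became 0 with quantile normalization, a common sum, the compared groups only or all libraries numbered 2 left out, 2 with upper quartile scaling (Cdkn2c and Trp53), and 0 to 2 over single libraries, and within FA the count of 0 became 1 without the filter. Between CD45.1 and CD45.2 monocytes the count of 0 became 1 without the filter, where Cdkn2a was then tested. For the difference between cell types in the time contrast the count of 0 became 2 with all libraries numbered 2 left out, and 0 to 1 over single libraries, with 1 without PM2.5 replicate 2 of TR-AΦ or FA replicate 2 of CD45.2 monocytes at 32-weeks. The causes were not tested.

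Whether replicate numbers pair the libraries was not settled. Over all genes with a mean of 1 FPKM, none of 42 pairs of groups had all 3 Pearson correlations of same-numbered deviations over 0.1, with a range from -0.10 to 0.21. By rank, a measure chosen after seeing the data, 4 of the 10 pairs of groups of one exposure and time had all 3 over 0.1 (range -0.05 to 0.45), and in 57 of 60 cases a library correlated best with its own number in the other group. Among the other 32 pairs, from different mice, 3 had all 3 over 0.1 and a library correlated best with its own number in 144 of 192 cases, so a shared number was not only a shared mouse. With the replicate block the TR-AΦ time count of 3 became 4 (Gdf15 added), the monocyte time count 2 (Mdm2 added), that between the monocyte origins 1 (Gdf15) and that of AΦ against monocytes at 4-weeks 9 instead of 7. With the number within exposure and time as a block, added after seeing the data, the count for the difference between cell types in the time contrast became 2 (Sesn2 and Gdf15), that of AΦ against monocytes at 4-weeks 9, and that of the CD45.1 populations 7 instead of 6. Under neither block did a member lose a call. Over all genes the first and the added block called 85 and 22 between AΦ origins and 144 and 146 between monocyte origins. Over all genes the TR-AΦ time count of 748 was 1308 with the block, 346 with a common sum, 395 with the compared groups only and 373 with all libraries numbered 2 left out, where the monocyte count of 1914 was 989. With the block that count was 2644.

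The log2 fold change of Cdkn2d over time in TR-AΦ, -0.13, ranged from -0.27 to 0.0405 over single libraries left out, and was positive without FA replicate 2 of 4-weeks. That of Sesn2 in monocytes, -0.04, was 0.0313 with quantile normalization, 0.0877 with a common sum and 0.0825 with upper quartile scaling. It ranged from -0.11 to 0.0440 over single libraries and was positive when FA replicate 0 of either time point was left out.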
